A study of Mus musculus with 8 samples.

Results

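The 10 genes described here encode proteins of the endothelial surface and of the matrix next to it: Emcn, Cd34, Cd93, Clec14a, Mmrn2, Robo4, Plvap, Egfl7, Ecscr and Myct1. They were chosen by symbol as endothelial surface and lumen genes, and each matched 1 of the 52636 rows of the count table. All 10 were counted often enough to be tested, with 15698 genes tested in all. The material was mouse liver endothelium, the cell layer inside vessels, isolated and then cultured. Per the series' design text, 4-OHT, an active form of tamoxifen, was given for 48 hours to delete Erg, Fli1 or both, and culture went on for 7 days. Erg and Fli1 encode transcription factors of the ETS family. The labels call the genotypes WT and dKO and do not expand dKO. They also name no Cre driver or promoter, and state 4-OHT for every library, WT included, as given to the mice, while the design text has it added to the cultures. Each genotype was studied in the absence of cytokines and after 16 hours with IL1B and TNFA, which drive inflammation. This gave 4 groups of 2 libraries of polyadenylated RNA, from live CD45-, CD31+, VE-cadherin+ cells. Whether a group's 2 libraries are separate animals or cultures is not given in the labels, so each p-value here reflects no more than how far these libraries lie apart.

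As background, the inner wall of a vessel carries a coat of glycoproteins that faces the blood and sets how leukocytes, plasma proteins and growth factors meet the cell. Emcn and Cd34 encode sialomucins, heavily glycosylated proteins of this coat. Cd93 and Clec14a encode transmembrane receptors of the group 14 C-type lectin family, and both bind multimerin 2, the matrix protein encoded by Mmrn2. Robo4 encodes an endothelial receptor of the roundabout family with a role in vessel stability, and Plvap the protein that forms the diaphragms of caveolae and fenestrae. Egfl7 encodes a secreted protein that endothelial cells deposit in their matrix. Ecscr and Myct1 encode membrane proteins of endothelial cells. Endothelial genes are a known class of ETS factor targets, and the DNA core that ETS factors bind is GGAA.

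The promoters of several of these genes are shown first because ETS factors were the ones deleted. RefSeq promoter windows (GRCm38.p6, 250 bases before to 50 bases after a gene's start) were at hand for 6 of the 10 genes, in 8 windows, of which 3 belong to Egfl7. The windows of Emcn, Clec14a, Robo4 and Myct1 and the second window of Egfl7 follow, 5′ to 3′ along the gene, with every GGAA or its reverse complement TTCC in capitals. They lie at chr3:137340828-137341127 (plus strand, Emcn), chr12:58269209-58269508 (minus strand, Clec14a), chr9:37401722-37402021 (plus strand, Robo4), chr10:5593478-5593777 (plus strand, Myct1) and chr2:26583615-26583914 (plus strand, Egfl7).
Emcn: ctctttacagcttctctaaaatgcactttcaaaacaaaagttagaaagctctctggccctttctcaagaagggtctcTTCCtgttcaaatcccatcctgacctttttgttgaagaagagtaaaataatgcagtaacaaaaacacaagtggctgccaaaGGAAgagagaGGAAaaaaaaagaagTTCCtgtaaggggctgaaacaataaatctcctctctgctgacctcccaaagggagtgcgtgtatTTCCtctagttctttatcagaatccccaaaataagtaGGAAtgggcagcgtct
Clec14a: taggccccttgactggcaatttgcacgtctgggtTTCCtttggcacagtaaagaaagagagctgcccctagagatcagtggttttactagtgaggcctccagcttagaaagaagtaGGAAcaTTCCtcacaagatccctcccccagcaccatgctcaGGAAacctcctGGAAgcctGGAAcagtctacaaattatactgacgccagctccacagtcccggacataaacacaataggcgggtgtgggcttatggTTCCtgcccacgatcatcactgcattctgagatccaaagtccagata
Robo4: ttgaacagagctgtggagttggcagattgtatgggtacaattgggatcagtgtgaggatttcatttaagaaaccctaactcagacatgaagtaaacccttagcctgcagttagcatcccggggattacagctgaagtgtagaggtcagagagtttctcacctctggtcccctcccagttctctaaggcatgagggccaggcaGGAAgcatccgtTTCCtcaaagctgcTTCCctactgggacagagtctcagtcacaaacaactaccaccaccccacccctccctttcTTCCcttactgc
Myct1: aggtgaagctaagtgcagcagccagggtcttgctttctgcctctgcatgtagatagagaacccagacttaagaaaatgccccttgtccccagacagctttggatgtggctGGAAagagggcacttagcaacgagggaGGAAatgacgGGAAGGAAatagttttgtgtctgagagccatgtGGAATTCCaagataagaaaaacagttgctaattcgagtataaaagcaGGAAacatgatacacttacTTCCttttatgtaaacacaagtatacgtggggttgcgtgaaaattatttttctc
Egfl7: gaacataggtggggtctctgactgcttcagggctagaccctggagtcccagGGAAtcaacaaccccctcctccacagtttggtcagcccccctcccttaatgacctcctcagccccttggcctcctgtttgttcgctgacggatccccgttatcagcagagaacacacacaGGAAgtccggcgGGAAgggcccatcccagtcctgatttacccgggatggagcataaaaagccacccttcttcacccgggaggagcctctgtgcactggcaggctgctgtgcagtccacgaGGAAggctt

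Counted on both strands, the core GGAA occurred 8 times in the Myct1 window, 7 times in that of Clec14a, 6 times in that of Emcn, 5 times in that of Cd34 and 4 times in that of Robo4. The 3 Egfl7 windows held 5, 4 and 1. Of all 32851 windows of this length in the table, 96% held the core at least 1 time, with a median of 3 and quartiles of 2 and 5. The Myct1 count exceeded that of 96.3% of all windows, the Clec14a count 92%, the Emcn count 84.3%, the Cd34 count 71.4% and the Robo4 count 53.7%. For the 3 Egfl7 windows these shares were 71.4%, 53.7% and 4.02%. Of 3 longer words that contain the core, CAGGAAGT was found in the second Egfl7 window (3.33% of all windows hold it) and AACAGGAA in the Emcn window and the first Egfl7 window (2.65%). CCGGAAGT was in none of the 8 (3.89% of all windows). A match is a description of the letters and not a bound site, and binding was not measured here.

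**Figure D1:**
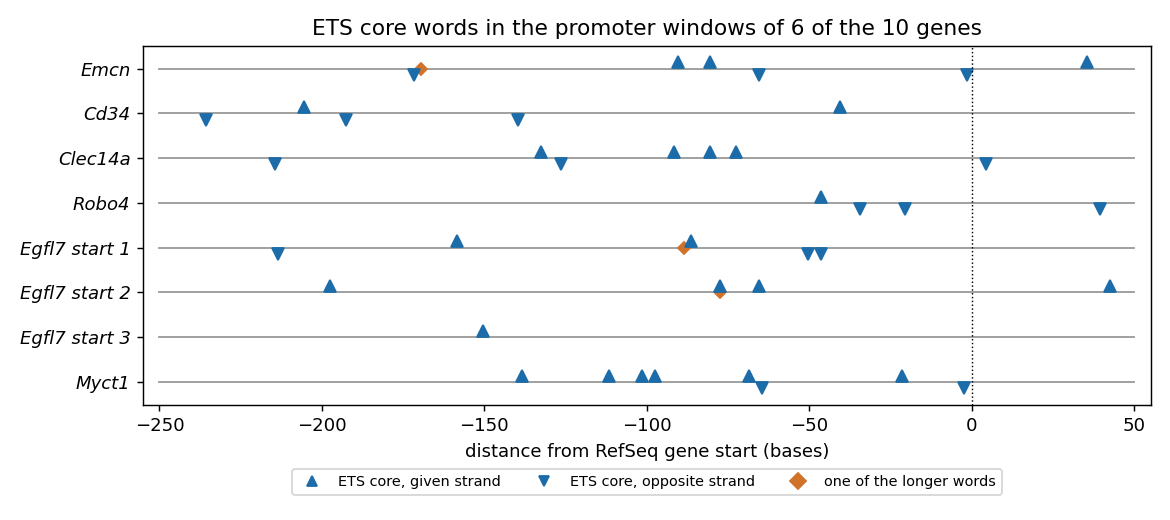
Positions of the ETS core GGAA (blue triangles, pointing up on the given strand and down on the opposite strand) and of the longer words CAGGAAGT and AACAGGAA (orange diamonds) in 8 RefSeq promoter windows of 6 genes, as distance in bases from the gene's start. Myct1 carried the most cores (8) and the third Egfl7 window the fewest (1).

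Library totals ran from 23009062 to 26944030 counts. Erg had 196 and 186 CPM (counts per library total, TMM-adjusted) in the WT libraries without cytokines, and the dKO libraries had 40.1 CPM (replicate 1) and 91.3 CPM (replicate 2). For Fli1 these levels were 161, 177, 21.9 and 62.5 CPM. The dKO replicate 2 libraries thus kept more of both transcripts than the replicate 1 libraries. Xist, the RNA of the silenced X in female cells, was at 0.48 CPM in WT replicate 1 and 633 CPM in WT replicate 2 without cytokines, and the Y-linked Ddx3y at 118 and 0.0337 CPM. With cytokines the WT libraries of the same number had the same pattern (Xist 0.926 and 454 CPM, Ddx3y 110 and 0.0393 CPM), so the 2 WT replicates were male-like and female-like and not repeats of the cells of 1 animal. In dKO, replicate 1 was male-like (Xist 0.849 and 1.32 CPM, Ddx3y 140 and 158 CPM without and with cytokines). The dKO replicate 2 libraries held both transcripts (Xist 224 and 171 CPM, Ddx3y 90.6 and 117 CPM). Whether these libraries mix cells of different animals, or cells with and without the deletion, was not tested, and each level given for them is that of the whole library. Results are therefore given for each dKO library, and with and without the replicate 2 libraries.

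Both genes of the sort were lower in both dKO libraries than in both WT libraries. Pecam1 (CD31) went from 1610 and 1560 CPM in WT to 277 and 636 CPM in dKO without cytokines, 3.47-fold lower (edgeR adjusted p = 0.0293), and Cdh5 (VE-cadherin) from 1230 and 1310 CPM to 163 and 587 CPM (adjusted p = 0.0904). Of 16 stellate, pericyte and fibroblast markers, 9 reached a mean of 1 CPM in WT without cytokines. Of the 12 tested, 6 were called higher in dKO without cytokines, beside 13.4% of all genes. The summed level of the 16 was 9220 to 10900 CPM in the WT libraries, 17800 and 19200 CPM in dKO replicate 1 and 13400 and 15200 CPM in dKO replicate 2. Most of that sum was Dcn, at 9020 CPM or more in every library, and it hides the rest of the list. The 12 tested genes, Dcn included, had a median log2 fold change of 3.12. Pdgfra, a receptor of fibroblasts and stellate cells, went from 2.07 and 3.67 CPM in WT to 933 and 615 CPM in dKO (adjusted p = 0.00131), and the collagen gene Col3a1 from 24.1 and 27.2 CPM to 1830 and 332 CPM (adjusted p = 0.0189). Pdgfrb, Col1a1, Col1a2 and Lum were the other 4 called, and the other 6 tested, Dcn among them, did not pass. Without cytokines the pericyte marker Rgs5 had 6.76 and 9.84 CPM in WT and 2.99 and 0.873 CPM in dKO. Acta2 had 5.83 and 10.5 CPM in WT and 10.5 and 12.3 CPM in dKO. Tagln was at or below 1.12 CPM in every library, and Des, Cspg4, Reln, Ngfr and Dpt at or below 1.04 CPM. The stellate marker Lrat was at or below 0.0454 CPM throughout. Of 14 leukocyte markers, Ptprc and Cd3e were at or near 0 (0.0454 CPM at most), and summed levels, mainly Cd14, were 252 to 551 CPM in WT and 138 to 202 CPM in dKO. The 13 hepatocyte markers summed to 3.66 to 6.34 CPM in WT and 166 to 310 CPM in dKO, with Ttr and Hnf4a at 0 counts in all 8 libraries and Alb at 0 in 7. Without cytokines 3 of the 4 tested were called higher in dKO, beside 13.4% of all genes. The 3 were Ahsg (0.48 and 0.438 CPM in WT, 226 and 105 CPM in dKO without cytokines), Hp (0.591 and 1.04 CPM, 56.9 and 57.2 CPM) and Trf (3.95 and 3.98 CPM, 26.5 and 24.5 CPM). The 11 cholangiocyte and mesothelial markers summed to 5.78 to 17.9 CPM in WT and 63.1 to 270 CPM in dKO. Without cytokines 3 of 6 tested were called higher, beside 13.4% of all genes. Spp1 was the largest part of the dKO sums, at 25.6 and 73 CPM without cytokines and 133 and 244 CPM with them. Krt7, Epcam, Krt8, Msln and Upk3b were at or below 0.506 CPM in every library. The 11 liver sinusoidal endothelial markers in the table summed to 2380 and 2570 CPM in WT and 223 and 822 CPM in dKO without cytokines. Of these, 4 of 9 tested were called lower, beside 9.66% of all genes, with a median log2 fold change of -2.59. Stab1 made up most of the WT sums (1740 and 2050 CPM) and had 18.6 and 611 CPM in dKO. Gata4, most of the sum in dKO replicate 1, had 309 and 241 CPM in WT and 157 and 126 CPM in dKO. Stab2, Fcgr2b and Dnase1l3 were at or below 1.7 CPM in every library. The 6 lymphatic endothelial markers summed to 374 and 221 CPM in WT and 60.3 and 147 CPM in dKO without cytokines. Of the 5 tested, 0 were called lower (beside 9.66% of all genes) and 0 higher (beside 13.4%). The 2 WT replicates differed here, with Prox1 at 19.8 and 5.16 CPM and Lyve1 at 159 and 63.9 CPM. In dKO these were at 2.5 and 4.2 CPM and at 43 and 61.1 CPM. The part that other cells may have in the results below was not tested. In bulk RNA, fewer cells of a type and less RNA per cell cannot be told apart.

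Without cytokines, all 10 genes were lower in every dKO library than in every WT library, with mean levels 2.31-fold (Plvap) to 5.39-fold (Robo4) lower. Emcn and Plvap passed the test and the other 8 did not (edgeR quasi-likelihood, Benjamini-Hochberg adjusted p under 0.05 over all 15698 genes). In this comparison 9.66% of all tested genes were called lower, 13.4% higher, and 34.1% had dKO libraries that both lay below both WT libraries. DESeq2 called 4 of 10 lower (Ecscr, Emcn, Myct1 and Plvap), beside 13.2% of all genes. The median log2 fold change was -1.81 over the 10 genes and 0.02 over all tested genes. The plot of levels by library shows that the gap between the 2 dKO replicates was the main difference among the members.

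**Figure D2:**
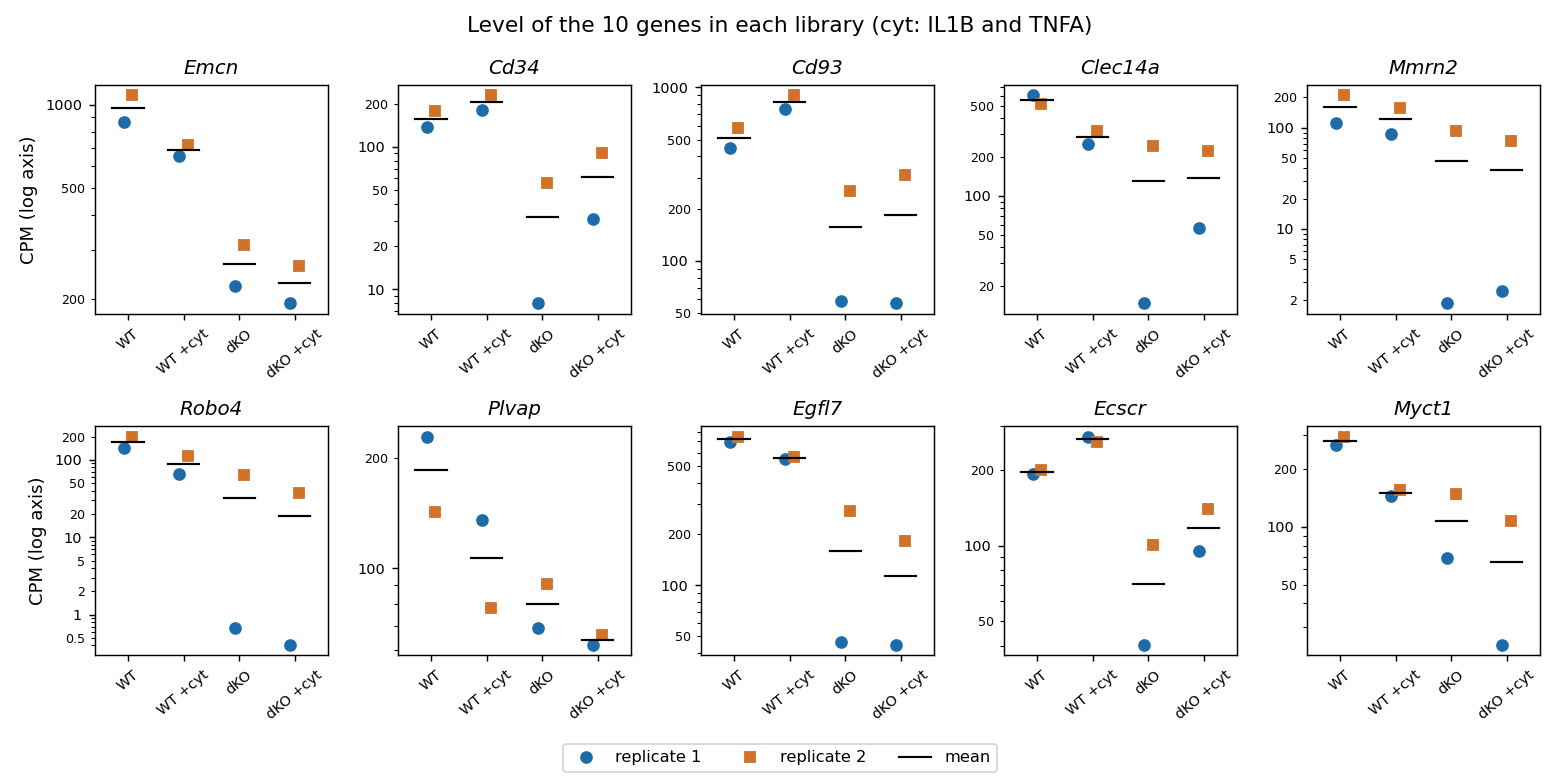
Level of each gene in CPM (log axis) in the 8 libraries, by group, with replicate 1 as circles, replicate 2 as squares and the group mean as a bar. Every dKO point lies below every WT point of the same treatment, and dKO replicate 1 lies below dKO replicate 2 for all 10 genes. Without cytokines that gap runs from 1.31-fold for Plvap to 93.8-fold for Robo4.

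Among the sialomucins, Emcn (GRCm38 chromosome 3, 137341067 to 137432185, plus strand) had 867 and 1080 CPM in WT (974 ± 152, SD, n = 2) and 223 and 313 CPM in dKO, replicate 1 first (268 ± 63.7). The groups were far apart and the dKO replicates close together. The mean was 3.63-fold lower, with a log2 fold change of -1.86 (SE 0.23, edgeR adjusted p = 0.0052), and Emcn passed in all 17 alternative settings, with adjusted p-values up to 0.0379. Cd34 (chromosome 1, 194938819 to 194961279, plus strand), also an adhesion ligand and a marker of blood progenitors, stood at 137 and 178 CPM in WT and at 7.95 and 56 CPM in dKO. Its groups did not overlap either, but the dKO libraries were 7.05-fold apart, and the test did not pass (log2 fold change -2.3, SE 0.93, adjusted p = 0.122).

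The lectin receptors and their shared matrix ligand differed most in dKO replicate 1. Cd93 (chromosome 2, 148436640 to 148443563, minus strand) had 447 and 580 CPM in WT and 59 and 253 CPM in dKO. Clec14a (chromosome 12, 58264720 to 58269290, minus strand), which has a single exon, had 602 and 513 CPM in WT and 14.7 and 245 CPM in dKO. Mmrn2 (chromosome 14, 34375465 to 34404287, plus strand) had 112 and 210 CPM in WT and 1.83 and 93 CPM in dKO, a 50.7-fold gap between the dKO libraries. For all 3 genes dKO replicate 2 lay between dKO replicate 1 and WT. Their fitted log2 fold changes were -1.72 (SE 0.93, adjusted p = 0.224) for Cd93, -2.1 (SE 1.23, adjusted p = 0.256) for Clec14a and -1.76 (SE 1.82, adjusted p = 0.508) for Mmrn2. With SEs of this size the test could not tell these values from 0.

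Robo4 (chromosome 9, 37401897 to 37415115, plus strand) had the widest gap between dKO libraries. WT had 143 and 200 CPM, and the dKO libraries had 0.67 CPM (15 counts) and 62.9 CPM (1513 counts). The first dKO library was nearly without the transcript while the second kept 36.7% of the WT mean. The fitted log2 fold change was -2.43 (SE 1.99, adjusted p = 0.405). Plvap (chromosome 8, 71497765 to 71511752, minus strand) went the other way in its spread, with 228 and 142 CPM in WT and 69 and 90.7 CPM in dKO. Here the WT libraries differed more than the dKO libraries. The mean was 2.31-fold lower, with a log2 fold change of -1.21 (SE 0.33, edgeR adjusted p = 0.0466). That call passed in 6 of 17 alternative settings, and it was lost without WT replicate 1 (0.191), WT replicate 2 (0.0707), dKO replicate 1 (0.216) or dKO replicate 2 (0.0764). It was lost too without dKO replicate 1 (0.0761) or 2 (0.0735) given cytokines, which enter only through the shared spread.

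Egfl7 (chromosome 2, 26580014 to 26593120, plus strand) was one of the most abundant members, at 697 and 748 CPM in WT and 46.4 and 274 CPM in dKO (log2 fold change -2.17, SE 0.94, adjusted p = 0.144). The microRNA genes Mir126a, on the same strand, and Mir126b, on the opposite strand, lie within Egfl7. Both had 0 counts in all 8 libraries, which were made from polyadenylated RNA and do not measure mature microRNAs. They share 100% of their bases with the exons of Egfl7 merged over all its annotated transcripts, so their 0 counts do not show that they were silent. Merging does not tell whether they lie in an exon or an intron of a given transcript. The exons of Egfl7 share 1.79% of their bases with Agpat2, so few counts could be shared with that gene.

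Of the 2 membrane proteins of endothelial cells, Ecscr (chromosome 18, 35713086 to 35722356, minus strand) had 193 and 200 CPM in WT and 40.3 and 101 CPM in dKO (log2 fold change -1.48, SE 0.42, adjusted p = 0.0521). It was just short of the threshold, and its exons share 3.54% of their bases with the gene 1700066B19Rik. Myct1 (chromosome 10, 5593775 to 5606904, plus strand) had 268 and 296 CPM in WT and 69.1 and 148 CPM in dKO (log2 fold change -1.38, SE 0.69, adjusted p = 0.192). The WT libraries of both genes were close together and the dKO libraries about as far apart as those of Erg and Fli1.

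Read per length of merged exons, Egfl7 was the highest of the 10 in WT without cytokines, at 195 and 209 CPM per kilobase, followed by Emcn at 160 and 200. Neighbours from Clec14a (132 and 112) through Ecscr (110 and 114) and Myct1 (94.2 and 104) to Plvap (115 and 71.5) and Cd93 (66.9 and 86.9) overlapped or lay close together. Mmrn2 (28.2 and 52.8), Robo4 (27 and 37.7) and Cd34 (18.8 and 24.4) were lowest, and Mmrn2 and Robo4 overlapped. In dKO replicate 1 the order differed, with Emcn highest at 41.2 CPM per kilobase, then Plvap at 34.7, and Mmrn2 (0.46) and Robo4 (0.126) lowest.

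The level left in each dKO library, as a percentage of the WT mean, separated the members further. In dKO replicate 1 without cytokines, Robo4 was at 0.391%, Mmrn2 at 1.14%, Clec14a at 2.65%, Cd34 at 5.05%, Egfl7 at 6.42% and Cd93 at 11.5%. All 6 lay below the 13% left of Fli1 in that library, and these 6 and Ecscr (20.5%) lay below the 21% left of Erg. Emcn (22.9%), Myct1 (24.5%) and Plvap (37.3%) lay above both. In dKO replicate 2 the range was far narrower, from 32.1% (Emcn) to 57.8% (Mmrn2), beside 47.8% for Erg and 36.9% for Fli1. The order of the members was not the same in the 2 libraries, since Mmrn2 was second lowest in the first and highest in the second.

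**Figure D3:**
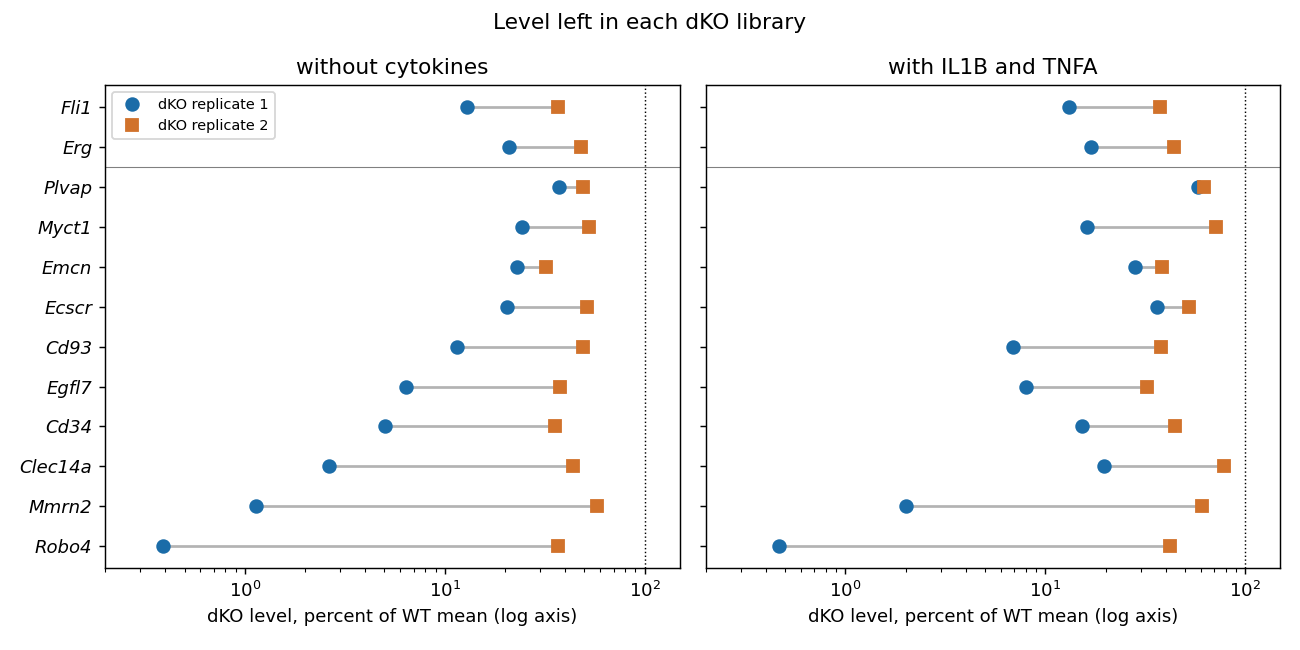
Level of each gene in the dKO libraries as a percentage of the mean of the 2 WT libraries with the same treatment (log axis; dotted line at 100%), with dKO replicate 1 as circles and replicate 2 as squares. Erg and Fli1 are set above the line; replicate 1 spans 0.391% (Robo4) to 37.3% (Plvap) and replicate 2 spans 32.1% to 57.8% without cytokines.

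All 10 genes were lower in dKO replicate 1 than in dKO replicate 2 both without and with cytokines, as were 34.9% of all tested genes. Cd34, Cd93, Clec14a, Mmrn2, Robo4, Egfl7 and Myct1 differed by more than 2-fold both times, against 4.73% of all tested genes. Such gaps were not particular to the members. Among other endothelial surface genes, Kdr had 1.25 and 27.3 CPM in dKO replicates 1 and 2 without cytokines, and 1.04 and 22.1 CPM with them. Ptprb had 8.45 and 54 CPM, and 3.91 and 33 CPM. Others had no such gap, as Calcrl (818 and 672 CPM, 922 and 803 CPM) and Nrp2 (440 and 295 CPM, 526 and 385 CPM). The median ratio of replicate 2 to replicate 1 was 5.1 for the 10 genes and 0.99 for all tested genes without cytokines, and 4 and 1 with cytokines. Erg and Fli1 had ratios of 2.28 and 2.85 without cytokines. In WT, the same ratio ran from 0.621 (Plvap) to 1.87 (Mmrn2). The summed stellate and fibroblast markers were at 17800 CPM (replicate 1) and 13400 CPM (replicate 2) in dKO without cytokines, mostly Dcn (13400 and 11700 CPM). The sinusoidal endothelial markers summed to 223 and 822 CPM, with Stab1 at 18.6 and 611 CPM and Gata4 at 157 and 126 CPM. Whether these bear on the gap was not tested.

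Without both dKO replicate 2 libraries, a setting chosen with earlier results of these data known, all members but Plvap passed (9 of 10, beside 17.6% of all genes called lower), with log2 fold changes of -8 for Robo4, -6.47 for Mmrn2, -5.26 for Clec14a, -4.32 for Cd34, -3.98 for Egfl7 and -3.14 for Cd93. Leaving out both dKO replicate 1 libraries instead, chosen after seeing the data, 7 of 10 passed (7.53% of all genes), and the log2 fold change of Robo4 was then -1.44 and that of Clec14a -1.18. Mmrn2, Robo4 and Plvap were the 3 that did not pass there. Each of these fits has 1 dKO library per treatment and assumes that it varies like the WT groups. The size of the difference thus rested on which dKO library was read, while its direction did not.

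With cytokines present, the dKO libraries again lay below both WT libraries for all 10 genes, as they did for 36.2% of all tested genes. Over both treatments, all 4 dKO libraries lay below all 4 WT libraries for 7 of 10 (all but Mmrn2, Plvap and Myct1), beside 16.3% of all tested genes. The comparison addresses the deletion in inflamed cells. Emcn, with 654 and 718 CPM in WT and 193 and 264 CPM in dKO, had a mean 3-fold lower and a log2 fold change of -1.59 (SE 0.23, edgeR adjusted p = 0.00528). It was the only member edgeR called lower, beside 15.4% of all genes, and 0 were called higher, beside 18.6%. DESeq2 called Ecscr and Egfl7 lower as well (3 of 10, beside 17.9% of all genes). The median log2 fold change of the members was -1.63, against 0.01 for all tested genes. The largest fitted difference was that of Egfl7, with 550 and 568 CPM in WT against 44.7 and 181 CPM in dKO (log2 fold change -2.31, SE 0.95, adjusted p = 0.108). Robo4 was again almost absent from dKO replicate 1, at 0.409 CPM (9 counts), with 37.1 CPM in replicate 2 and 65 and 111 CPM in WT (log2 fold change -2.23, SE 1.99, adjusted p = 0.415).

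Cd93 stood at 755 and 900 CPM in WT with cytokines and at 56.9 and 312 CPM in dKO (log2 fold change -2.16, SE 0.95, adjusted p = 0.126). Clec14a stood at 251 and 321 CPM in WT and at 56.4 and 223 CPM in dKO, so that dKO replicate 2 kept 77.9% of the WT mean (log2 fold change -1.03, SE 1.2, adjusted p = 0.528). These 2 receptors of 1 family thus had unlike gaps between genotypes under cytokines, although no test set them against each other. Mmrn2 stood at 87.4 and 157 CPM in WT and 2.45 and 74.3 CPM in dKO (adjusted p = 0.503). The other members had log2 fold changes from -1.75 (Cd34, adjusted p = 0.181) to -0.74 (Plvap, adjusted p = 0.13), with Ecscr at -1.18 (adjusted p = 0.0731) and Myct1 at -1.2 (adjusted p = 0.218). Without both dKO replicate 2 libraries 9 of 10 passed (20.2% of all genes), and without both dKO replicate 1 libraries 6 of 10 (12.9%). This comparison and the one without cytokines use different libraries, but libraries of the same number and genotype resembled each other.

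In WT cells the members lay on different sides of their levels without cytokines. Emcn, Clec14a, Robo4, Plvap, Egfl7 and Myct1 were lower in both libraries with cytokines than in both without, as were 33.9% of all tested genes, and Cd34, Cd93 and Ecscr were higher, as were 34.3%. None passed without pairing (edgeR, 0 of 10 lower beside 7.69% of all genes, 0 of 10 higher beside 9.72%). At an unadjusted p under 0.05 the member count was 0 in each direction too, beside 15.8% lower and 17.6% higher of all genes, and DESeq2 called 0, beside 11% lower and 12.3% higher. When libraries of the same number were paired within a genotype, 4 members were lower (18.5% of all genes) and Cd93 was higher (19.3%). The 4 were Robo4 (log2 fold change -0.99, SE 0.09, adjusted p = 0.000113), Plvap (-0.81, SE 0.09, adjusted p = 0.000382), Emcn (-0.5, SE 0.09, adjusted p = 0.00412) and Mmrn2 (-0.39, SE 0.11, adjusted p = 0.0284). Cd93 had a paired log2 fold change of 0.7 (SE 0.11, adjusted p = 0.00156). When only the 4 WT libraries were fitted, unpaired, Clec14a, Emcn, Egfl7 and Myct1 passed as lower (4 of 10, beside 14.9% of all genes) and Cd93 and Ecscr as higher (2 of 10, beside 16.2%).

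By pair, Robo4 went from 143 to 65 CPM in WT replicate 1 and from 200 to 111 CPM in WT replicate 2. Clec14a went from 602 to 251 CPM and from 513 to 321 CPM, and Myct1 from 268 to 145 CPM and from 296 to 155 CPM. Plvap went from 228 to 135 CPM and from 142 to 78.1 CPM. These 4 had the largest differences downward, at 1.6-fold to 2.4-fold in each pair. Emcn, Egfl7 and Mmrn2 differed by 1.27-fold to 1.51-fold. In the other direction, Cd93 went from 447 to 755 CPM and from 580 to 900 CPM. Ecscr went from 193 to 273 CPM and from 200 to 259 CPM, and Cd34 from 137 to 181 CPM and from 178 to 230 CPM. The sialomucins Emcn and Cd34 therefore lay on opposite sides of 0, as did the lectin receptors Clec14a and Cd93. Fli1 went from 161 to 91.5 CPM and from 177 to 96.4 CPM in the same pairs, and Erg from 196 to 208 CPM and from 186 to 201 CPM.

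**Figure D4:**
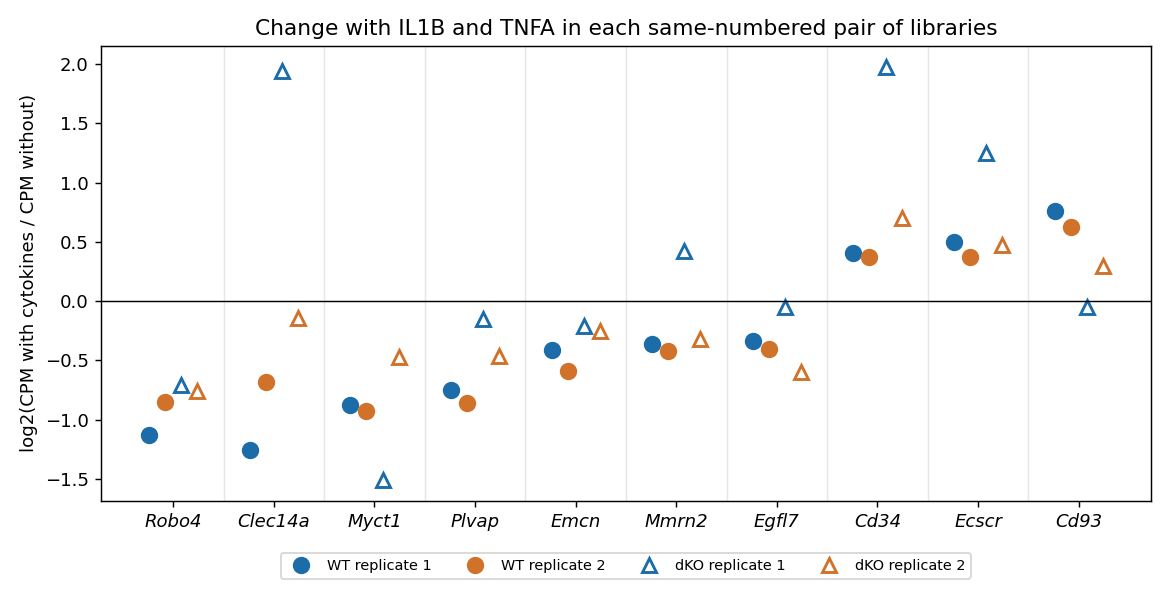
Log2 ratio of CPM with cytokines to CPM without, for each same-numbered pair of libraries (filled circles WT, open triangles dKO; blue replicate 1, orange replicate 2). In WT both pairs agree in sign for all 10 genes; in dKO the 2 pairs differ in sign for Clec14a, Mmrn2 and Cd93.

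In dKO cells the 2 pairs disagreed more. Without pairing 0 of 10 members passed in either direction (edgeR, beside 2.06% of all genes lower and 3.5% higher), 0 had an unadjusted p under 0.05 (10.5% lower and 12.9% higher) and DESeq2 called 0 (5.35% lower and 7.44% higher). Plvap alone had libraries that did not overlap downward (24.8% of all genes), and 0 members did so upward (24.7%). With pairing, Robo4 was lower (log2 fold change -0.76, SE 0.13, adjusted p = 0.00418, 11.3% of all genes lower) and Ecscr higher (0.85, SE 0.18, adjusted p = 0.0247, 12.7% higher). Robo4 went from 0.67 to 0.409 CPM, which rests on 15 and 9 counts, and from 62.9 to 37.1 CPM. Ecscr went from 40.3 to 95.7 CPM and from 101 to 140 CPM.

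Clec14a went from 14.7 to 56.4 CPM in dKO replicate 1, 3.83-fold higher, and from 245 to 223 CPM in dKO replicate 2. Cd34 went from 7.95 to 31.4 CPM, 3.95-fold higher, and from 56 to 91.1 CPM. Both differences were larger in the pair with less Erg and Fli1, which is 1 pair. With both dKO replicate 2 libraries left out, Cd34, Clec14a and Ecscr passed as higher (3 of 10, beside 5.03% of all genes) and Myct1 as lower (1 of 10, beside 3.2%). Myct1 went from 69.1 to 24.3 CPM and from 148 to 107 CPM. Cd93, which was higher with cytokines in both WT pairs, went from 59 to 56.9 CPM and from 253 to 312 CPM. Emcn differed by 1.16-fold and 1.19-fold downward, and Egfl7 by 1.04-fold and 1.51-fold.

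Over all 4 pairs, Emcn, Robo4, Plvap, Egfl7 and Myct1 were lower with cytokines in each (5 of 10, beside 25.2% of all tested genes), and Cd34 and Ecscr were higher in each (2 of 10, beside 25.1%). The difference between the dKO and the WT cytokine responses was tested as an interaction. No member passed (edgeR, 0 of 10 and 0% of all genes in each direction), with fitted differences from -0.45 (Cd93) to 1.06 (Clec14a, SE 1.68, adjusted p = 0.879). At an unadjusted p under 0.05 the count was 0 of 10, beside 5.41% of all genes lower and 5.31% higher, and with DESeq2 0 of 10, beside 1.78% and 1.23%. With pairing 0 of 10 passed too, beside 2.8% of all genes with a lower and 3.24% with a higher response in dKO. The paired differences were -0.56 for Cd93 (SE 0.15, adjusted p = 0.0721), 0.5 for Plvap (SE 0.13, adjusted p = 0.07) and 1.77 for Clec14a (SE 0.82, adjusted p = 0.336). Without both dKO replicate 2 libraries Clec14a passed, with a difference of 2.92 (adjusted p = 0.0272, beside 0.683% of all genes), from 1 dKO pair.

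Of 31 relatives and partners of the 10 proteins 29 were tested. Without cytokines 6 were higher in dKO (beside 13.4% of all genes), 1 was lower (beside 9.66%) and 22 did not pass, with a median log2 fold change of 0.22. No test set this list against the members. Emilin2, of the multimerin and EMILIN family of matrix proteins, was 13.5-fold higher (adjusted p = 0.00146). Podxl2, a sialomucin related to Cd34, was 12.2-fold higher (adjusted p = 0.00626), from 0.554 and 0.91 CPM in WT to 11.4 and 6.61 CPM in dKO. Unc5b, a netrin receptor that Robo4 binds, was 2.82-fold higher (adjusted p = 0.0173), and Slit3, a ligand of the roundabout family, 2.56-fold higher (adjusted p = 0.00598). The adaptor gene Crkl was 1.3-fold lower (adjusted p = 0.031). With cytokines 8 were higher (beside 18.6% of all genes) and 4 lower (beside 15.4%) in dKO. Among them Cd248, of the same lectin family as Cd93 and Clec14a, was 4.11-fold higher (adjusted p = 0.0283), and Cavin2, a coat protein of caveolae, 3.3-fold lower (adjusted p = 0.016).

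With cytokines in WT, 6 of the 29 relatives and partners fell (beside 7.69% of all genes) and 2 rose (beside 9.72%), with Cd248 5.63-fold lower (adjusted p = 0.0256), Cavin2 3.18-fold lower (adjusted p = 0.0282) and Robo1, a relative of Robo4, 2.25-fold higher (adjusted p = 0.0143). In dKO 1 fell and 1 rose, about the share of all genes (2.06% and 3.5%), which were Cavin2 (4.4-fold lower, adjusted p = 0.0311) and Robo1 (2.97-fold higher, adjusted p = 0.0164).

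Other endothelial surface genes were set beside the members. Of 32, all tested, 10 were lower in dKO without cytokines (beside 9.66% of all genes), 1 was higher (beside 13.4%) and 21 did not pass, and their median log2 fold change was -1.32. Procr, the endothelial protein C receptor, was 4.22-fold lower (adjusted p = 0.00541) and Esam, an adhesion molecule of cell contacts, 3.44-fold lower (adjusted p = 0.00429). Jam3, another contact protein, was 2.08-fold higher (adjusted p = 0.0156). With cytokines 7 were lower (beside 15.4%), 0 higher (beside 18.6%) and 25 did not pass, with Tie1, a receptor tyrosine kinase, 3.56-fold lower (adjusted p = 0.00613) and the receptor gene Adgrf5 2.94-fold lower (adjusted p = 0.00907). The cytokine comparison in WT called 2 of 32 lower (beside 7.69%) and 0 higher (beside 9.72%), namely Eng (3.31-fold, adjusted p = 0.0104) and Vwf (2.18-fold, adjusted p = 0.0283). In dKO, 2 were lower (beside 2.06%) and 1 higher (beside 3.5%): Vwf (2.39-fold lower, adjusted p = 0.0426), Nrp1 (2.01-fold lower, adjusted p = 0.0207) and Procr (2.89-fold higher, adjusted p = 0.0272).

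The genes whose pattern was most like the mean of the members were sought among 9917 other genes, all reaching a group mean of 10 CPM. Likeness was the Pearson correlation of log2 CPM over the 8 libraries, which share depth and fall into sets by genotype and dKO replicate, so it is given as a description. The 6 highest were Gpr182 (r = 0.998), Prkch (0.997), Tmem204 (0.996), Serpina3f (0.995), Exoc6 (0.994) and Gng2 (0.994). Gpr182, an endothelial receptor that takes up chemokines, had 150 to 235 CPM in the WT libraries. Its dKO replicate 1 libraries had 5.27 and 8.27 CPM, and replicate 2 had 58.9 and 41.2 CPM. Serpina3f, of the serine protease inhibitor family, had 163 to 301 CPM in WT, against 1.61 and 1.59 CPM for dKO replicate 1 and 49.6 and 34 CPM for replicate 2. Among the members, Egfl7 (r = 0.996) and Robo4 (0.973) lay closest to their own mean and Plvap (0.746) farthest. Erg and Fli1 had 0.98 and 0.954. Each member enters that mean, while Erg, Fli1 and the 6 genes above do not, so members' values are not directly comparable with theirs.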

How the data were processed

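The deposited table holds counts as the authors made them: whole numbers of reads for each Ensembl gene ID, not normalized. The submitters' processing notes name FastQC 0.11.5, STAR 2.7.6a and GRCm38, without their roles. How strand was treated in counting is not given in the sources used here, and per the labels' protocols libraries came from an unstranded or a stranded kit. Symbols and gene coordinates are from GENCODE M21 (GRCm38), promoters from RefSeq (GRCm38.p6).

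In R 4.3.3, edgeR 4.0.16 (TMM scaling, filterByExpr, robust quasi-likelihood) was fitted to all 8 libraries in a model of 4 groups with 4 residual degrees of freedom. Two-sided p-values for 5 contrasts were adjusted by Benjamini-Hochberg over 15698 genes, with 0.05 as the threshold. The code was tested on simulated data. Alternatives were DESeq2 1.42.0, other scalings, no filter, replicate blocks, fewer groups and left-out libraries.

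Named genes were the 10 members, Erg and Fli1; from each of 2 lists (31 relatives and partners, 32 other endothelial surface genes) up to 4 called genes a direction with the largest fold change and at least 1 CPM in a group; and the 6 genes most alike in pattern. Xist, Ddx3y, the single marker genes named and the endothelial surface genes named for the gap between dKO replicates were chosen after their values were seen. The members and lists were chosen with earlier results of these data known. Deviations of same-numbered libraries from their group means correlated within a genotype (0.51 in WT, 0.74 in dKO) and little across genotypes (0.05 to 0.16). The cytokine comparisons were therefore also fitted with pairs inside each genotype, a pairing read from the data. A protein comparison listed in the plan was not run.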

Additional observations from a re-analysis of the deposited data

How the results depend on the processing

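Each group had 2 libraries, and depth was similar in all. Of 870 values of the 10 genes under the alternatives, 745 kept direction and side of the threshold, 76 came to pass, 11 no longer passed (all Plvap, dKO against WT without cytokines) and 38 changed sign, 0 of these between genotypes. Other scalings moved the median of all genes by -0.07 to 0.06 (log2). The cause of each change below was not tested.

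For dKO against WT without cytokines (3617 genes in either direction, 2 members lower), no filter gave 3256 genes and 1 member, and DESeq2 4486 genes and 4 members. With only the 4 libraries compared, 2266 genes and 1 member were called. Leaving out both dKO replicate 2 libraries gave 5602 genes and 9 members, and leaving out both dKO replicate 1 libraries, chosen after seeing the data, gave 7 members. Leaving out 1 library at a time gave 527 to 3783 genes and 1 to 5 members. With the replicate number as a block across all libraries 4645 genes were called, and Plvap did not pass (edgeR adjusted p = 0.0525) while Ecscr did.

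For dKO against WT with cytokines (1 member lower), the count was 3 with DESeq2, 3 with the replicate block, 2 with only the 4 libraries, 9 with dKO replicate 2 left out and 6 with dKO replicate 1 left out in both treatments. Leaving out 1 library gave 1621 to 5523 genes and 1 to 3 members.

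For cytokines in WT (2733 genes, 0 members), the replicate block gave 3337 genes and 1 member lower. The block within a genotype gave 5943 genes, 4 members lower and 1 higher. Members numbered 4 lower and 2 higher with only the 4 libraries (4585 genes), with dKO replicate 2 left out in both treatments (4417 genes) and likewise dKO replicate 1 (4409 genes). Leaving out 1 library gave 413 to 2749 genes and 0 members, and Mmrn2 ranged from -0.88 to 0.12.

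For cytokines in dKO (872 genes, 0 members), DESeq2 called 1852 genes, the replicate block 1351, the block within a genotype 3769 (1 member lower, 1 higher), and only the 4 libraries 1. Without both dKO replicate 2 libraries there were 1339 genes, 1 member lower and 3 higher, with Cd93 at -0.05 and Mmrn2 at 0.42. Without both dKO replicate 1 libraries there were 411 genes, with Clec14a at -0.15. Leaving out 1 library gave 130 to 731 genes and 0 to 1 member higher. The log2 fold changes then spanned -0.03 to 2.94 (Cd34), -1.46 to 1.65 (Cd93), -1.21 to 3.24 (Clec14a), -1.84 to 1.28 (Egfl7), -0.48 to 0.03 (Emcn), -4.27 to 4.39 (Mmrn2) and -6.27 to 4.8 (Robo4).

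For the difference in response (0 genes), 75 genes were called with no filter, 391 with DESeq2, 947 with the block within a genotype (Egfl7 at 0.03, Myct1 at -0.06), 193 with dKO replicate 2 left out in both treatments (1 member, Clec14a; Egfl7 at 0.34, Myct1 at -0.58) and 1 with dKO replicate 1 left out likewise. Leaving out 1 library gave 0 to 41 genes, and log2 differences of -0.4 to 2.56 (Cd34), -2.13 to 0.96 (Cd93), -0.22 to 4.21 (Clec14a), -0.19 to 1.11 (Ecscr), -1.45 to 1.65 (Egfl7), -3.86 to 4.78 (Mmrn2), -1.23 to 0.87 (Myct1) and -5.29 to 5.76 (Robo4).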
